A study of Saccharomyces cerevisiae with 6 samples.

Results

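The genes described here are the 10 genes through which Saccharomyces cerevisiae takes up and breaks down allantoin and urea: the transporter genes DAL4 (YIR028W), DAL5 (YJR152W) and DUR3 (YHL016C), the enzyme genes DAL1 (YIR027C), DAL2 (YIR029W), DAL3 (YIR032C), DUR1,2 (YBR208C) and DAL7 (YIR031C), DCG1 (YIR030C), and the repressor gene DAL80 (YKR034W). They were chosen by their ORF names and not by a cutoff on measured values, but with earlier results of these data known. All 10 of them, out of 5657 genes in all, were each read by 1 probe set. Whether other genes add signal to these probe sets was not tested. The strain was CEN.PK113-7D, a wild-type laboratory yeast, in both groups. BSA was present in the 3 cultures of one group and absent from the 3 control cultures. The abbreviation BSA, which the labels do not spell out, usually stands for bovine serum albumin, a soluble protein. Neither its dose nor the medium is stated in the sources used here. Cultures grew aerobically at 30 °C in baffled shake flasks, and each gave 1 Affymetrix array, which the labels call a biological replicate. The labels place sampling at 48 h in one field and in an early glucose phase in another, so they leave the growth phase unclear.

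Allantoin is a nitrogen-rich product of purine breakdown that yeast can use as its nitrogen source. Allantoinase, allantoicase and ureidoglycolate lyase cut it stepwise into urea and glyoxylate, and urea amidolyase then releases ammonium from the urea. The genes of this pathway are textbook cases of nitrogen catabolite repression: the GATA activators Gln3 and Gat1 drive them when rich nitrogen sources run short, the GATA repressor Dal80 opposes this, and Dal81 and Dal82 add induction by the pathway's intermediates.

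The measured quantity was the deposited log2 expression value of each probe set, in which a difference of 1 is a change of 2-fold. Array medians were 7.56 to 7.62. Pairs of arrays of one group differed with an SD over genes of 0.0567 to 0.198, and arrays of different groups with an SD of 0.625 to 0.732. Replicates 2 and 3 without BSA differed least (SD 0.0567), whereas the other 5 pairs within a group had an SD of 0.117 to 0.198. These 2 arrays were kept as separate replicates, and counts of calls are also given with their mean as 1 sample. The median log2 change of all 5657 genes, BSA minus no BSA, was -0.13. At a limma adjusted p of 0.05, 1603 genes were higher and 2665 lower with BSA (37.6% of the calls higher), but when the median deviation from the gene means was set to 0 on each array (median-deviation centring) the split was 2074 higher and 2056 lower (50.2% higher), and after cyclic loess normalization it was 1986 and 2073 (48.9% higher).

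With BSA, the allantoin and urea genes did not move as one group. DAL4, the allantoin permease gene, fell 3.92-fold, and 5 further genes, DAL1, DAL5, DAL7, DCG1 and DUR3, fell by 1.22-fold to 1.42-fold. DAL2, which encodes allantoicase, and DAL80, which encodes the pathway's repressor, rose 1.49-fold and 1.41-fold. DAL3 and DUR1,2 did not pass the test. Of the 10 genes, 6 were thus lower and 2 higher, where 47.1% of all genes were lower, 28.3% were higher and 75.4% passed in either direction, so these counts lie near the background. With the mean of no BSA replicates 2 and 3 as 1 sample, the counts were again 6 lower and 2 higher (2474 and 1479 over all genes). The limma adjusted p was then larger for DAL5 (0.0293), DAL7 (0.0309) and DAL80 (0.015). The BSA and no BSA arrays had no overlap in 9 of the 10 genes, against 79.5% of all genes. The median log2 change of the 10 genes was -0.32, which is -0.18 relative to the median of all genes.

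**Figure D1:**
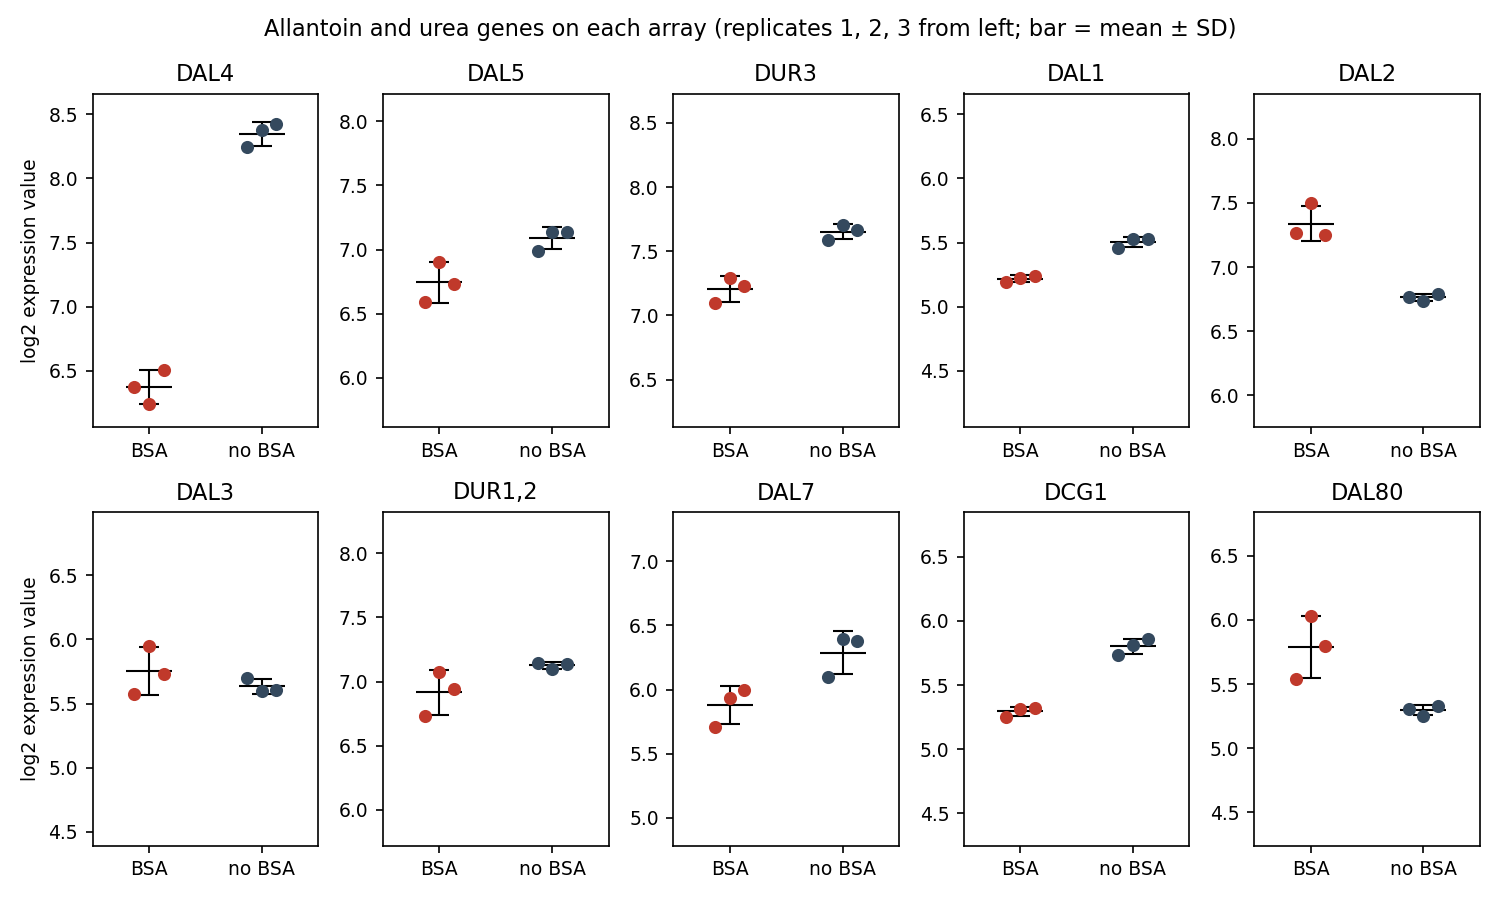
Log2 expression value of each allantoin and urea gene on the 6 arrays, with BSA (red, left) and without BSA (dark, right), and the mean ± SD of each group (n = 3 arrays). Each panel spans the same log2 range around its own gene, and levels are not comparable between panels. DAL4 shows the widest gap, with all 3 BSA arrays at or below 6.51 and all arrays without BSA at or above 8.24, whereas the groups overlap in DAL3.

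Among the transporters, DAL4 showed the largest change. Its log2 values were 6.37, 6.25 and 6.51 with BSA, against 8.24, 8.38 and 8.42 without BSA. The groups lay far apart, and within each group the arrays stayed close to each other. The mean was 6.38 ± 0.13 with BSA and 8.35 ± 0.09 without BSA (SD, n = 3 arrays each), a log2 change of -1.97 ± 0.08 (SE, limma adjusted p = 2.03e-06). This was the seventh lowest change of the whole table (rank 7 of 5657), in which 1.96% of genes were called and at least 2-fold lower. The 95% interval of the DAL4 change, -2.16 to -1.78, overlapped the interval of no other gene of the pathway.

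The other transporter genes fell by much less. DUR3, which encodes the urea transporter of the plasma membrane, had log2 values of 7.10, 7.29 and 7.23 with BSA, against 7.59, 7.71 and 7.67 without BSA. The groups did not overlap, and the log2 change was -0.45 ± 0.07 (SE, limma adjusted p = 0.000457). DAL5 encodes the allantoate permease, which also carries ureidosuccinate and dipeptides. Its log2 values were 6.59, 6.91 and 6.73 with BSA, against 6.99, 7.14 and 7.14 without BSA. BSA replicate 2 came near the lowest array without BSA, and the log2 change was -0.35 ± 0.09 (SE, limma adjusted p = 0.00777). The DAL5 call was lost after cyclic loess normalization, where the change was -0.15 (limma adjusted p = 0.121).

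The enzymes that cut the allantoin ring and its product changed in different directions. DAL2, whose enzyme allantoicase splits allantoate, had log2 values of 7.27, 7.50 and 7.25 with BSA, against 6.77, 6.74 and 6.79 without BSA. Every BSA array lay above every array without BSA, and BSA replicate 2 stood above the other two. The log2 change was 0.57 ± 0.07 (SE, limma adjusted p = 0.000251), or 0.71 relative to the median of all genes. DAL1, whose enzyme allantoinase opens the ring one step earlier, had log2 values of 5.19, 5.22 and 5.24 with BSA, against 5.46, 5.52 and 5.53 without BSA. The arrays of each group were nearly level, and the log2 change was -0.29 ± 0.05 (SE, limma adjusted p = 0.000929). After median-deviation centring, this change was -0.15 (limma adjusted p = 0.0167). DAL3, whose enzyme ureidoglycolate lyase releases urea and glyoxylate, had log2 values of 5.58, 5.95 and 5.73 with BSA, against 5.70, 5.60 and 5.61 without BSA. The groups overlapped, since BSA replicate 1 was the lowest and BSA replicate 2 the highest of the 6 arrays. The log2 change of 0.12 ± 0.09 (SE) did not pass (limma adjusted p = 0.281), and its 95% interval ran from -0.10 to 0.34. DAL3 passed as higher after median-deviation centring (log2 change 0.25, limma adjusted p = 0.0297) and with array weights (log2 change 0.17, limma adjusted p = 0.0205).

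The products of the ring are handled by 2 further enzymes. DUR1,2 encodes urea amidolyase, the fused enzyme that turns urea into ammonium and carbon dioxide. Its log2 values were 6.73, 7.07 and 6.95 with BSA, against 7.14, 7.10 and 7.14 without BSA. BSA replicate 2 came close to the arrays without BSA, which were nearly level. The log2 change was -0.21 ± 0.09 (SE), with a 95% interval of -0.41 to -0.01, and missed the threshold over all genes (limma adjusted p = 0.0568). It passed as lower without BSA replicate 2 (log2 change -0.29, limma adjusted p = 0.0136), with array weights (log2 change -0.15, limma adjusted p = 0.018) and with a variance trend (limma adjusted p = 0.0477), and was close to 0 after cyclic loess normalization (log2 change -0.02, limma adjusted p = 0.849). DAL7 encodes a malate synthase, which joins glyoxylate to acetyl-CoA. Its log2 values were 5.71, 5.93 and 5.99 with BSA, against 6.09, 6.39 and 6.38 without BSA. Replicate 1 was the lowest array in both groups, and the groups did not overlap. The log2 change was -0.41 ± 0.10 (SE, limma adjusted p = 0.00815).

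DCG1, a gene of unknown biochemical role that is regulated with the pathway, fell on every BSA array. Its log2 values were 5.25, 5.31 and 5.32 with BSA, against 5.74, 5.81 and 5.86 without BSA. The gap between the groups was several times the spread within them, and the log2 change was -0.51 ± 0.05 (SE, limma adjusted p = 8.2e-05). DAL80, the GATA repressor gene, which is itself under nitrogen control, moved the other way. Its log2 values were 5.54, 6.03 and 5.79 with BSA, against 5.30, 5.25 and 5.33 without BSA. All BSA arrays were higher, but they spread widely, with an SD of 0.24 against 0.04 without BSA. The log2 change was 0.49 ± 0.11 (SE, limma adjusted p = 0.00487), and it was 0.37 without BSA replicate 2 and 0.62 without BSA replicate 1, a call in both cases.

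Of the 10 genes, 5 were dim: DAL1, DAL3, DAL7, DCG1 and DAL80 lay below the first quartile of all genes on each of the 6 arrays, and the deposited table gives no detection call. DAL4 lay below the first quartile on the 3 BSA arrays only, and DAL2 on the 3 arrays without BSA only. The fall of DAL4 thus ended in the dim range, and the rise of DAL2 began there. Whether this limited the size of either change was not tested. Genes of the opposite mating type give a view of dim probe sets in these arrays, since CEN.PK113-7D is of mating type a and alpha-specific genes are silent in such cells. All 4 alpha-specific genes measured, 3 of them dim on every array, passed the test as deposited, where 75.4% of all genes passed, with log2 changes of 0.29 (MF(ALPHA)1), -0.20 (MF(ALPHA)2), -0.22 (STE3) and -0.31 (SAG1). Of these calls, 1 higher and 1 lower were left after median-deviation centring, after cyclic loess normalization, without no BSA replicate 2 or 3, and with these 2 arrays as 1 sample, and 1 higher and 2 lower after quantile normalization. After median-deviation centring the log2 changes were 0.42 (MF(ALPHA)1), -0.07 (MF(ALPHA)2), -0.08 (STE3) and -0.18 (SAG1), beside -0.28 for DAL7, -0.37 for DCG1 and 0.62 for DAL80. Whether such dim signals come from the named transcript was not tested. Of 6 a-specific genes, MFA1, MFA2 and STE2 lay above the median of every array, BAR1 (log2 change -1.18) and STE6 (-0.70) were lower with BSA, and ASG7 lay below the first quartile on every array.

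**Figure D2:**
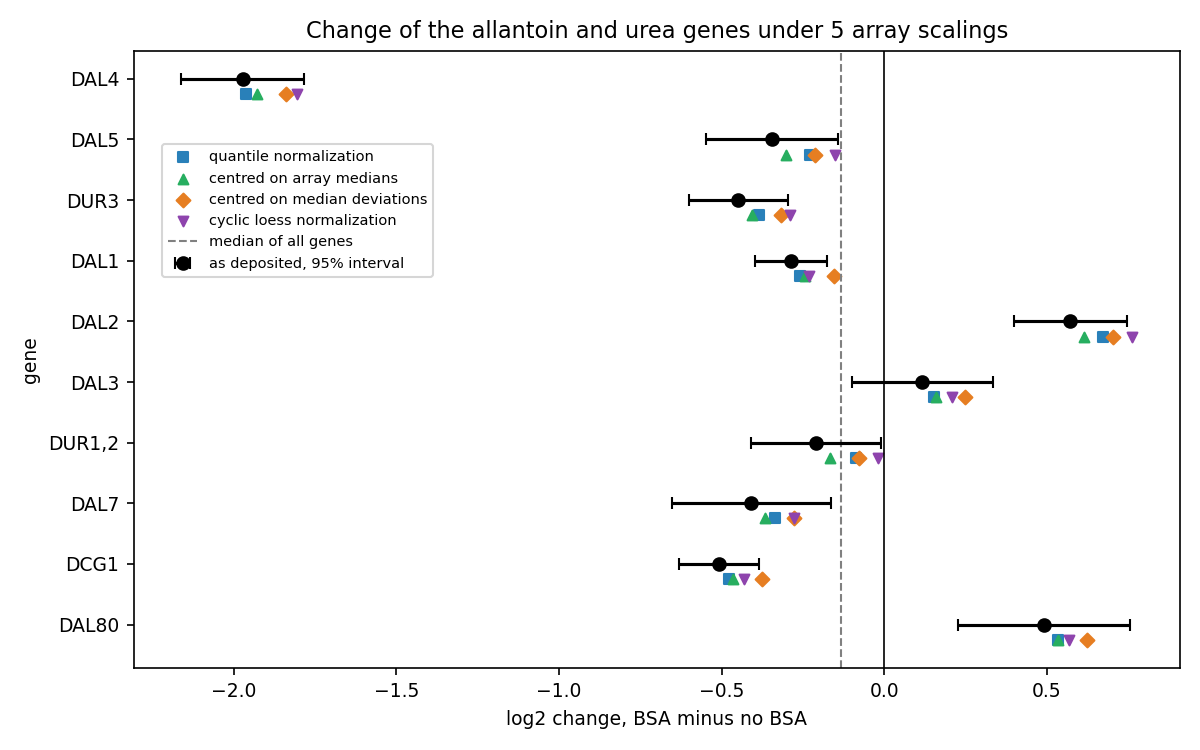
Log2 change, BSA minus no BSA, of each gene as deposited (black, with the 95% interval of the limma fit, n = 3 arrays per group) and after 4 other scalings of the arrays (coloured marks below). DAL4 stays between -1.97 and -1.80, DAL2 and DAL80 stay above 0 under each scaling, and DUR1,2 moves between -0.21 and -0.02.

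In 7 of the 10 genes the direction and the side of the threshold were the same under each of the alternatives that kept the gene. These were DAL1, DAL2, DAL4, DAL7, DAL80, DCG1 and DUR3, and the exceptions were DAL3, DAL5 and DUR1,2, as given above. Over these alternatives the log2 change ranged from -2.04 to -1.80 for DAL4, from 0.49 to 0.76 for DAL2 and from 0.37 to 0.62 for DAL80. DUR3 ranged from -0.49 to -0.29, DCG1 from -0.54 to -0.37 and DAL7 from -0.50 to -0.28. Several alternatives, such as the replicate block and the variance trend, could not alter the log2 change itself, only its limma adjusted p.

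The 6 genes DAL1, DAL4, DAL2, DCG1, DAL7 and DAL3 lie next to each other, in this order, on chromosome IX in the gene table of the S. cerevisiae assembly R64, with no other gene between them. Neighbouring genes of this cluster had unequal measured log2 changes. DAL1 and DAL4 are transcribed away from each other and so share the stretch between their starts, and their log2 changes were -0.29 and -1.97. DAL4 and DAL2 follow each other on the same strand, and DAL4 fell while DAL2 rose. DCG1, DAL7 and DAL3 follow each other on the opposite strand, with log2 changes of -0.51, -0.41 and 0.12. Each of these differences is between changes measured on the same arrays, and no test between genes was made. DAL1, DCG1, DAL7 and DAL3 lay below the first quartile on each of the 6 arrays, DAL4 on the 3 BSA arrays and DAL2 on the 3 arrays without BSA. Whether their low signal limited the changes that could be seen was not tested.

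The nearest measured genes outside the cluster had log2 changes of -0.72 to 2.49, against -1.97 to 0.57 inside it. On the side of DAL1, YVH1, a protein phosphatase gene, and MND2, for a subunit of the anaphase-promoting complex, fell by 0.36 and 0.26 on the log2 scale (limma adjusted p = 0.00241 and 0.00319). The call of MND2 was lost after cyclic loess normalization (limma adjusted p = 0.15). INA22 did not pass (log2 change -0.16), although it did with array weights (limma adjusted p = 0.0097) and with the replicate number as a block (limma adjusted p = 0.0284). On the side of DAL3, MGA2, a membrane-bound transcription factor gene, rose by 0.27 ± 0.06 and the lysine biosynthesis gene LYS1 by 0.77 ± 0.12 (log2 change ± SE). Next to them, NRE1 and IRC24 moved apart. NRE1 had log2 values of 10.66, 10.64 and 10.67 with BSA, against 8.20, 8.19 and 8.12 without BSA, a change of 2.49 ± 0.05 (SE, limma adjusted p = 2.44e-07). IRC24 fell by 0.72 on the log2 scale (limma adjusted p = 5.88e-05).

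**Figure D3:**
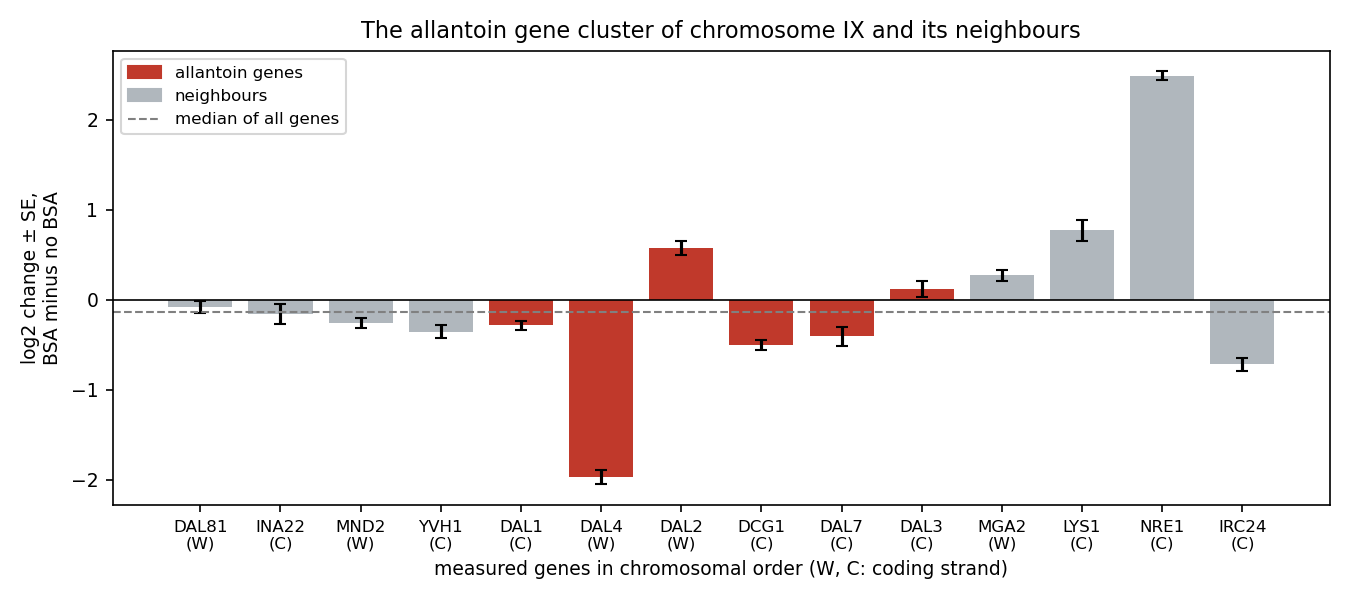
Log2 change, BSA minus no BSA, with its SE, of the 6 cluster genes (red) and the 4 nearest measured genes on each side (grey), in chromosomal order and not to distance (W and C give the coding strand, n = 3 arrays per group). DAL4 at -1.97 and DAL2 at 0.57 stand side by side, and the highest bar, NRE1 at 2.49, lies outside the cluster.

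Each regulator of the pathway changed by less than DAL4. Of 6 regulator genes besides DAL80, 1 rose, 2 fell and 3 did not pass, with a median log2 change of -0.02 against -0.13 for all genes. Over all genes, 28.3% rose and 47.1% fell. URE2, whose product holds the GATA activators in the cytoplasm when nitrogen is plentiful, had log2 values of 7.91, 8.21 and 8.04 with BSA, against 8.52, 8.68 and 8.66 without BSA. The groups did not overlap, and the log2 change was -0.57 ± 0.09 (SE, limma adjusted p = 0.000567). GZF3, which encodes the GATA repressor most like Dal80, fell by 0.37 on the log2 scale (limma adjusted p = 0.000534), whereas DAL80 itself rose. GAT1, an activator gene, averaged 9.13 ± 0.14 with BSA and 8.81 ± 0.05 without BSA (SD, n = 3 arrays each), a log2 change of 0.33 ± 0.08 (SE, limma adjusted p = 0.00575), and this call was lost after quantile normalization (log2 change 0.16, limma adjusted p = 0.1). GLN3, the other activator gene, had a log2 change of 0.05 ± 0.06 (SE), and DAL82 one of 0.04 ± 0.05 (SE). Neither passed as deposited, but both passed as higher after median-deviation centring (limma adjusted p = 0.0165 for GLN3 and 0.0121 for DAL82) and after cyclic loess normalization (limma adjusted p = 0.0144 for GLN3 and 0.00532 for DAL82). DAL81 had a log2 change of -0.08 ± 0.07 (SE), which turned positive under 3 of the 4 scalings without passing and passed as lower with array weights (limma adjusted p = 0.0401).

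Urea also arises in yeast from arginine, and enzymes outside the pathway also act on glyoxylate. Of 5 genes of arginine breakdown or glyoxylate use, 3 fell and 0 rose at a limma adjusted p of 0.05. At an unadjusted p under 0.05 also 0 rose. Of all genes, 47.1% were lower and 28.3% higher at the adjusted threshold. CAR1, the arginase gene, whose enzyme releases urea, had log2 values of 7.42, 7.73 and 7.46 with BSA, against 8.36, 8.48 and 8.53 without BSA. All BSA arrays were lower, and the log2 change was -0.92 ± 0.09 (SE, limma adjusted p = 6.62e-05). CAR2, the ornithine transaminase gene, fell by 0.48, and GOR1, a glyoxylate reductase gene, by 0.25 on the log2 scale, and the GOR1 call was lost after median-deviation centring (limma adjusted p = 0.0884). MLS1, the malate synthase gene most like DAL7, had a log2 change of 0.19 ± 0.13 (SE) and did not pass (limma adjusted p = 0.217), whereas DAL7 fell. MLS1 passed as higher without no BSA replicate 1 (limma adjusted p = 0.0194), with array weights (limma adjusted p = 0.000503) and after median-deviation centring (limma adjusted p = 0.0499). AGX1, for an aminotransferase that acts on glyoxylate, had a log2 change of 0.14 ± 0.07 (SE, limma adjusted p = 0.093), and passed as higher under 3 of the 4 scalings (limma adjusted p = 0.0083 to 0.0395), with array weights (limma adjusted p = 0.0034) and without no BSA replicate 1 (limma adjusted p = 0.0087).

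Relatives of the permeases were set beside them. Among 5 genes of the family of DAL4, 2 fell and 1 rose, where 47.1% of all genes fell and 28.3% rose. FUI1, the uridine permease gene, had a log2 change of -0.96 ± 0.10 (SE) and THI7, a thiamine transporter gene, one of -0.94 ± 0.05 (SE), both smaller in size than that of DAL4. NRT1, a transporter gene for nicotinamide riboside, rose by 0.57 ± 0.14 (SE, limma adjusted p = 0.00756), while the uracil permease gene FUR4 (0.01) and THI72 (0.08) did not pass as deposited. FUR4 passed as higher after cyclic loess normalization (limma adjusted p = 0.029), and THI72 under 3 of the 4 scalings (limma adjusted p = 0.0211 to 0.045). Among 7 relatives of DAL5, 2 rose and 1 fell, beside the same shares of all genes. The biotin transporter gene VHT1 rose by 0.82 ± 0.19 (SE) and the cysteine transporter gene YCT1 by 0.78 ± 0.06 (SE), whereas the pantothenate transporter gene FEN2 fell by 0.44 on the log2 scale. VHT1 spread widely without BSA, where replicate 1 stood at 8.67 and replicates 2 and 3 at 7.93 and 7.96. The other 4 relatives, SEO1, TNA1, THI73 and SOA1, had log2 changes of -0.03 to 0.27 and did not pass as deposited. THI73 passed as higher under all 4 scalings (limma adjusted p = 0.00799 to 0.0331), with array weights (limma adjusted p = 0.000439) and without BSA replicate 1 or no BSA replicate 1 (limma adjusted p = 0.0291 and 0.0154). SEO1 passed as higher after median-deviation centring (limma adjusted p = 0.036), and TNA1 without BSA replicate 1 (limma adjusted p = 0.0398).

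Other genes under nitrogen catabolite repression moved in both directions as well. Of 17 such genes outside the pathway, 8 rose, 5 fell and 4 did not pass, with a median log2 change of 0.13 against -0.13 for all genes and -0.32 for the 10 allantoin and urea genes. Over all genes, 28.3% rose and 47.1% fell. With no BSA replicates 2 and 3 as 1 sample, 6 of the 17 rose and 4 fell (1479 and 2474 over all genes). Without BSA replicate 3, 6 rose and 5 fell (1513 and 2519 over all genes). The counts were 6 and 5 without no BSA replicate 2 (1453 and 2459), and 6 and 4 without no BSA replicate 3 (1479 and 2469). After median-deviation centring 10 rose and 4 fell (2074 and 2056 over all genes), and with array weights 10 and 5 (1752 and 2901). UGA4, the GABA permease gene, had log2 values of 8.84, 9.15 and 9.15 with BSA, against 6.50, 6.69 and 6.68 without BSA. This gap of 2.42 ± 0.10 (log2 change ± SE, limma adjusted p = 2.03e-06) was larger than that of DAL4 and opposite in sign. UGA1, the GABA transaminase gene, rose by 1.83 ± 0.06 (SE, limma adjusted p = 9.89e-07). The other genes that rose were MEP3 (1.72 ± 0.11), AGP1 (0.87 ± 0.14), MEP2 (0.53 ± 0.16), PUT2 (0.44 ± 0.09), PUT4 (0.31 ± 0.09) and GLN1 (0.28 ± 0.08), as log2 change ± SE. The GLN1 call was lost after quantile normalization (limma adjusted p = 0.0603). The genes that fell were the carboxypeptidase gene CPS1 (-1.01 ± 0.06), the dicarboxylic amino acid permease gene DIP5 (-0.62 ± 0.08), the glutamate dehydrogenase gene GDH2 (-0.60 ± 0.08), the branched-chain aminotransferase gene BAT2 (-0.52 ± 0.05) and the proline oxidase gene PUT1 (-0.30 ± 0.09), as log2 change ± SE. The PUT1 call was lost after median-deviation centring (limma adjusted p = 0.0951), with no BSA replicates 2 and 3 as 1 sample (limma adjusted p = 0.0501) and without no BSA replicate 3 (limma adjusted p = 0.052). The 4 genes that did not pass as deposited were GAP1 (log2 change -0.14), MEP1 (0.06), OPT2 (0.02) and ECM38 (0.13).

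**Figure D4:**
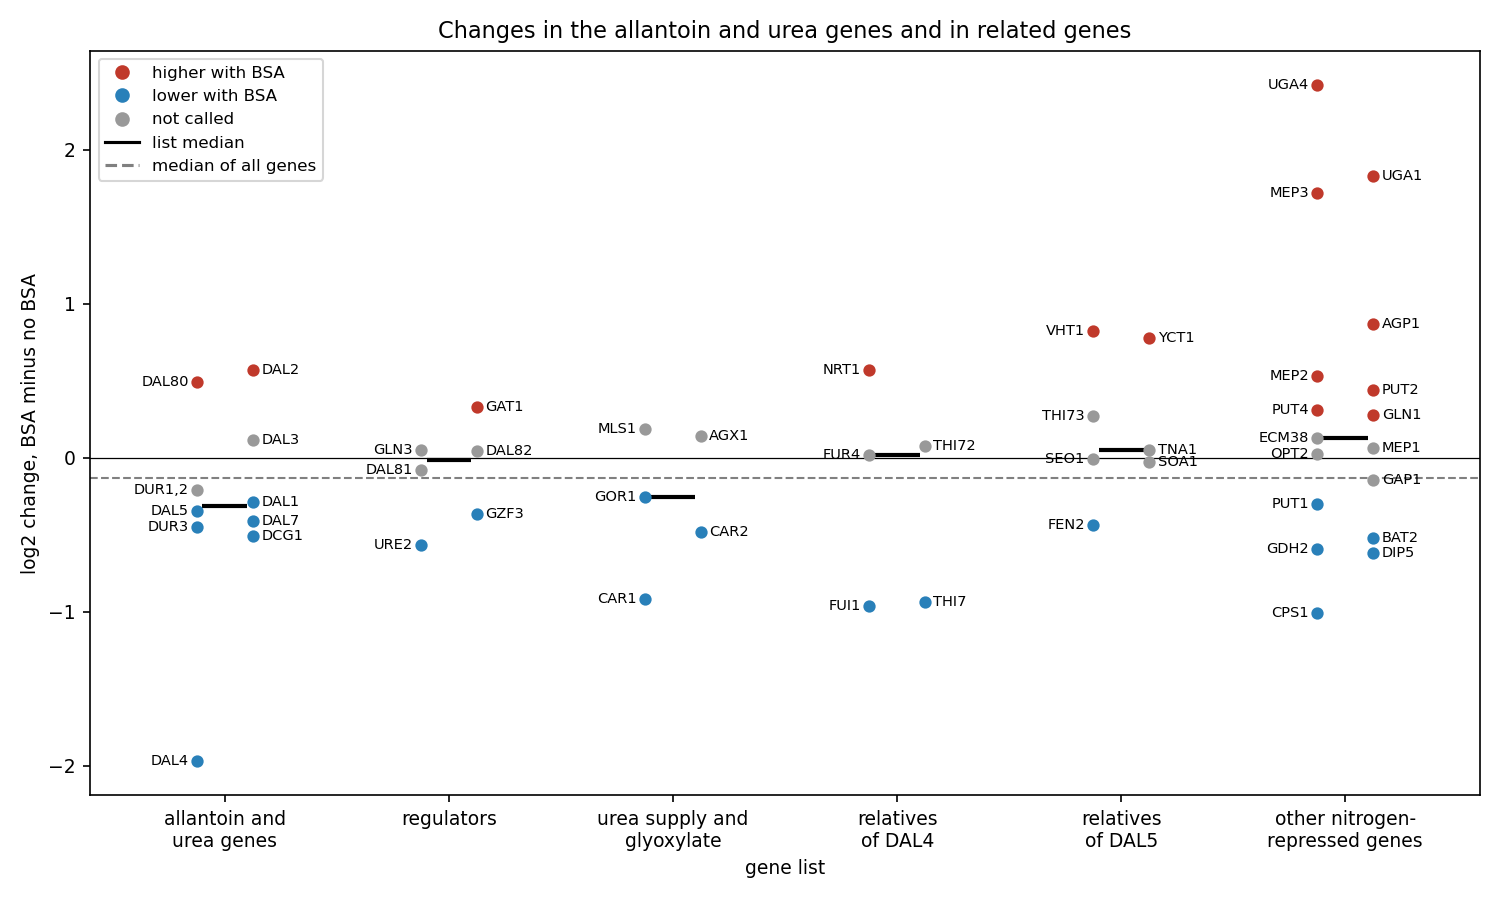
Log2 change, BSA minus no BSA, of each gene in the 6 lists (points, coloured by the limma call at an adjusted p of 0.05, n = 3 arrays per group), with the list medians (short bars) and the median of all genes (dashed). The 10 allantoin and urea genes spread from -1.97 for DAL4 to 0.57 for DAL2, and the other nitrogen-repressed genes from -1.01 for CPS1 to 2.42 for UGA4.

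The genes most like DAL4 and DAL80 over the 6 arrays were found by the root mean square difference between profiles centred on each gene's mean. For DAL4 they were MNC1 (0.0637), CPP3 (0.0853) and YNR065C (0.134), whose log2 changes were -2.05, -2.10 and -1.87. For DAL80 they were the formate dehydrogenase gene FDH1 (0.0504), FKS3 (0.0536) and TFC3 (0.058), a subunit gene of an RNA polymerase III factor, whose log2 changes were 0.43, 0.46 and 0.54. None of these genes belongs to the allantoin and urea pathway or to the lists above. Their log2 changes lie near those of DAL4 and DAL80 by the way they were picked. No other gene of the pathway had a change near that of DAL4, so none could be picked for it.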

How the data were processed

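Total RNA of 6 cultures, 3 with BSA and 3 without, was labelled and hybridised to 1 Affymetrix array each, per the labels' protocols. Each probe set has a deposited log2 value, for which the submitters' processing notes name PLIER and R 2.10.1. What each program did, and how background, scaling between arrays and filters were handled, is not given in the sources used here, and base 2 of the logarithm was taken from the range of the values. A deposited table pairs the 5705 probe sets with ORF names, and gene names and gene order came from the gene table of assembly R64.

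Of several probe sets of 1 gene, the brightest on average was kept (5657 genes). Values were used as deposited. BSA minus no BSA was fitted over all genes with limma 3.58.1 in R 4.3.3, with Benjamini-Hochberg adjustment over all genes and a threshold of 0.05. The fit was also run on simulated data in which a small part of the genes changed, whereas 75.4% of genes passed here. That run therefore says nothing about the scaling of these arrays. Arrays have no sequencing depth, and their number limits the precision. P-values set the difference between the groups against the spread between the cultures that the labels call biological replicates. In limma this spread is estimated for each gene with the help of the variances of all genes.

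The genes, the lists of related genes and the tests were chosen with earlier results of these data known. Named were all 10 genes and all genes of the lists of regulators, urea and glyoxylate steps and permease relatives. Of the other nitrogen-repressed genes, those with the 3 smallest p and those against the majority were to be named, and the remaining genes were added. The 4 measured genes on each side of the cluster and the 3 genes most like DAL4 and DAL80 were also named. Alternatives were the replicate number as a block, 4 scalings (quantile, array medians, median deviations, cyclic loess), a variance trend, a robust prior, array weights, leaving out the dimmest 25% of genes, averaging the probe sets of a gene, keeping every probe set, leaving out each array, no BSA replicates 2 and 3 as 1 sample, and a threshold of 0.01.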

Additional observations from a re-analysis of the deposited data

How the results depend on the processing

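Over the 19 alternatives, none of the 10 genes changed direction, and 179 of 185 values for single genes kept their side of the threshold. Several alternatives could not change a direction, since they left the log2 change of each gene they kept as deposited. These were the replicate block, the variance trend, the robust prior, leaving out the dimmest genes, the different handling of probe sets and the stricter threshold. Their values bear only on the side of the threshold. The handling of probe sets could hardly alter even that, since each of the 10 genes was read by 1 probe set. The median log2 change of the 10 genes was -0.18 after median-deviation centring and -0.19 after cyclic loess normalization, against -0.32 as deposited. These scalings set the median of all genes at -0.00067 and -0.02. Called changes moved by over 1.5 times for DAL5 after quantile normalization (-0.23), for DAL1 and DAL5 (-0.15 and -0.21 after median-deviation centring) and for DAL5 and DUR3 after cyclic loess normalization (-0.15 and -0.29). After leaving out the dimmest 25% of genes, 5 of the 10 genes remained, of which 1 was higher and 3 were lower. Of all 4242 genes that remained, 1354 were higher and 1962 lower. Leaving out each array in turn gave 2 higher genes each time, 6 to 7 lower genes and a median log2 change of -0.36 to -0.27. Over all 5657 genes, leaving out each array gave 1453 to 1597 higher and 2459 to 2680 lower genes. With the replicate number as a block, 2 genes were higher and 6 lower (1597 and 2669 over all genes). Deviations of same-numbered arrays from their group means correlated at 0.10, 0.02 and 0.04 across genes, and BSA replicate 2 correlated best with no BSA replicate 3 (0.12), so the numbers were not taken to pair the cultures. Of the 10 genes, 5 lay below the first quartile of signal on every array, and 3 arrays per group limit what small changes can show.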

Other observations

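Within the BSA group, replicate 1 was the lowest array in 8 of the 10 allantoin and urea genes, and in 47.7% of all genes. Replicate 2 was the highest BSA array in 6 of the 10 genes, and in 36.7% of all genes. The SDs between BSA arrays had a median of 0.144 in the 10 genes, against 0.0776 over all genes, and those between arrays without BSA a median of 0.057, against 0.0608 over all genes.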
